A study of Mus musculus with 3 samples.

Results

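Metallothioneins, the zinc sensor Mtf1 and the zinc transporters Slc30a1 and Slc30a3 were followed through ribosome profiling of cultured cortical neurons, which sequences the mRNA fragments (footprints) that ribosomes protect from nuclease. These 6 genes were taken by symbol from 20791 genes that had an annotated 5′ UTR, coding sequence (CDS) and 3′ UTR. They were chosen by their function and by an earlier measured value of the same libraries, the low CDS level of Mt1 in Chx against WT, which is therefore a description here. The neurons were primary cultures from the cortex of CD-1 mouse embryos, for which the labels give no genotype. The free-text descriptions go against the titles and recorded treatments: they speak of "dep" neurons and call WT the input of a psd region, Chx the input of cytosol and Harr a pulldown from cytosol. The grouping rests on titles and treatments, and whether these descriptions apply was not tested. The WT culture was left untreated. The Chx culture was exposed for 2 min to cycloheximide, a blocker of elongation that freezes ribosomes in place. The Harr culture was exposed for 2 min to harringtonine, which traps ribosomes at start codons and lets those farther along run off, before cycloheximide was pulsed in. Each treatment has 1 library from 3 pooled dishes, and rinse and lysis buffers contained 100 µg/ml cycloheximide for all of them, WT included. No difference below has a replicate check or a p-value, and intervals cover counting error alone. Duplicate reads had been removed before counting, but how they were recognised is not given in the sources used here, so reads may not all be separate molecules.

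Metallothioneins are small, cysteine-rich proteins that bind zinc and copper in the cytosol. Mt1 and Mt2 are made in most tissues and are strong in astrocytes of the brain, and Mt3 is the brain form. When free zinc increases, the transcription factor MTF1 binds metal response elements in the promoters of Mt1, Mt2 and Slc30a1. Slc30a1 encodes ZnT1, which exports zinc across the plasma membrane, and Slc30a3 encodes ZnT3, which loads zinc into synaptic vesicles. Proteins of the Slc39 (ZIP) family carry zinc the other way, into the cytosol.

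The 3 metallothionein genes lie side by side on the plus strand of chromosome 8 of the mm10 (GRCm38) genome. Mt3 spans 94152607 to 94154146, Mt2 follows after 18517 bases at 94172664 to 94173568, and Mt1 follows after another 5513 bases at 94179082 to 94180327. Mtf1 lies on chromosome 4 (124802104 to 124849800, plus strand), Slc30a1 on chromosome 1 (191906767 to 191913247, plus strand) and Slc30a3 on chromosome 5 (31086106 to 31108237, minus strand). The start codons are shown because harringtonine holds ribosomes there and because the position of a read is that of its 5′ end, so that a ribosome on the start codon is counted in the 5′ UTR. Each line gives 12 bases before the start codon, the start codon in capitals, and 15 bases after it, on the GENCODE M21 transcript with the most reads.
Mt1: ccagatctcggaATGgaccccaactgctcc
Mt2: cctccactcgccATGgaccccaactgctcc
Mt3: gctggactggatATGgaccctgagacctgc
Mtf1: cacacgtgagccATGggggaacacagtcca
Slc30a1: caggccgccgccATGggctgctggggccgc
Slc30a3: ggcagcggggacATGgagccttctctggcc
All 6 start codons had a G directly after them and a G 3 bases before them. Mt1 and Mt2 were identical over the first 20 coding bases and at 79.6% of all 186. The coding sequences of Mt1, Mt2 and Mt3 each held 20 cysteine codons, among 61, 61 and 68 codons, against 19 of 675 in Mtf1, 18 of 503 in Slc30a1 and 8 of 388 in Slc30a3. The core of the metal response element (TGCACNC or TGCGCNC, either strand) occurred 4 times in the RefSeq promoter window of Mt2 (GRCm38.p6, 300 bases around the start of the gene), 3 times in that of Mt1, 2 times in that of Slc30a1 and 1 time in that of Mt3. Mtf1 had no match, and of the windows of Slc30a3 one had no match and the other had 1. Among 32851 promoter windows of that length, 25.7% held at least 1 match, 7.11% at least 2, 1.97% at least 3 and 0.517% at least 4.

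The libraries held 30219197 (WT), 35722483 (Chx) and 9754412 (Harr) reads. Harr also had the fewest CDS reads of each metallothionein, Mtf1, Slc30a1 and Slc30a3, so their CDS levels are least precise there. All 8 neuronal markers had reads in every library, and their summed CDS reads were 4041 to 4727 per 1000000. Astrocyte markers, 4 of 4 with reads, were next at 213 (WT), 195 (Chx) and 78.8 (Harr) per 1000000. Most of their 6436 WT reads came from Slc1a3 (3809) and Aldh1l1 (2263), with 296 from Aqp4 and 68 from Gfap. Microglial, oligodendrocyte, endothelial and fibroblast markers summed to between 0.103 and 26.1 per 1000000, and the oligodendrocyte markers Mog and Mobp had no read. In such bulk libraries, fewer cells of a type and less RNA per cell cannot be told apart.

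Metallothionein coding sequences carried some of the densest footprints in these cultures. Per kilobase of CDS and per 1000000 reads (RPKM), Mt1 stood at 530 in WT (95% counting interval 511 to 549), 363 in Chx (349 to 378) and 159 in Harr (141 to 178), on its most-read transcript. Mt2 stood at 442 (425 to 459), 384 (369 to 399) and 125 (109 to 142). Mt3 stood at 298 (285 to 312), 196 (186 to 206) and 152 (135 to 170). In WT these levels placed the 3 genes at the percentiles 99.1, 98.8 and 98.0 of the 15477 genes with a CDS read. On this scale of library reads, WT was the highest library and Harr the lowest for each of them. For Mt3 the order of Harr and Chx depends on the reference, as given below. Within WT the order Mt1, Mt2, Mt3 had intervals that did not overlap. In Harr the intervals of all 3 overlapped one another.

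The zinc sensor and the transporters were far lower on the same scale. Mtf1 had 209, 227 and 52 CDS reads in WT, Chx and Harr, or 3.41 (2.96 to 3.91), 3.13 (2.74 to 3.57) and 2.63 RPKM (1.963 to 3.45), with intervals that overlapped among all libraries. The exporter gene Slc30a1 had 485, 845 and 148 reads, or 10.6 (9.69 to 11.6), 15.6 (14.6 to 16.7) and 10.03 RPKM (8.48 to 11.8), and Chx stood above the other libraries, which overlapped. Slc30a3 had only 5, 17 and 1 CDS reads, or 0.142 (0.0460 to 0.331), 0.408 (0.238 to 0.653) and 0.0878 RPKM (0.00222 to 0.489), and its Harr value lies under the floor of 3 reads. It was the only one of the 6 genes with fewer than 100 CDS reads over the libraries, so it fell below the read minimum for the ratios between libraries below. The near absence of Slc30a3 stood beside Slc17a7, the vesicular glutamate transporter of excitatory neurons, at 10.9, 18.7 and 10.2 RPKM.

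**Figure D1:**
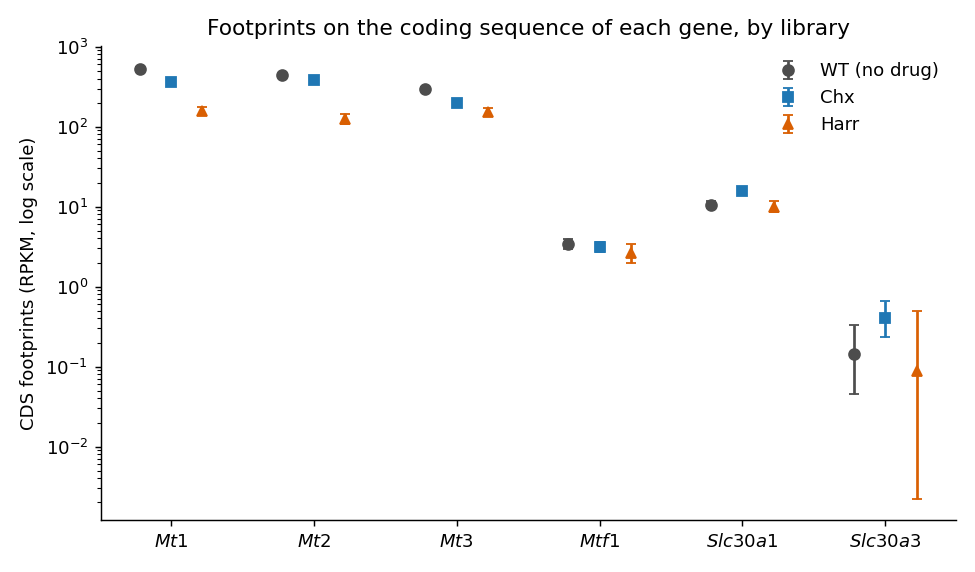
CDS footprints per gene (vertical axis, RPKM on a log scale) in the WT, Chx and Harr libraries, on the transcript with the most reads, with 95% counting intervals as bars. The metallothioneins sit between 125 and 530 RPKM, Mtf1 and Slc30a1 between 2.63 and 15.6, and Slc30a3 below 0.5 with wide intervals.

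For Mt1 the choice of transcript set the measured level. The longest annotated Mt1 transcript has a CDS of 114 nt that begins in exon 1 and stops within intron 1, so exons 2 and 3 fall into its annotated 3′ UTR. Its CDS held 146 (WT), 68 (Chx) and 5 (Harr) reads, the very reads that begin in the 28 coding bases of exon 1. Its 3′ UTR held 2914, 2403 and 329 reads, of which 97.2%, 97.5% and 86.0% began in exons 2 and 3. The spliced transcript, which is the most-read one and has a CDS of 186 nt, collected 2979, 2411 and 288 CDS reads. Mtf1, too, had a longest transcript that was not the most-read one, but both carry the same CDS of 2028 nt. The other 4 genes had 1 transcript that was both.

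Levels were then compared between libraries as log2 ratios of CDS reads per 1000000 CDS reads, and a gene was called where the ratio was at least 1 in size and its counting interval excluded 0. Between Chx and WT, 1 of the 5 genes with enough reads was called, Mt1 on its longest transcript, against a background of 0.122% of 11448 genes called lower in Chx and 0.192% called higher. That Mt1 value, −1.37 ± 0.21 (counting SE), was the 4th lowest of all genes and came from the exon 1 reads alone. The genes were chosen partly by this value, so its call and rank describe the choice and cannot be set against the background as a result. On the spliced transcript the log2 ratio was −0.58 ± 0.04, or 1.499-fold lower in Chx (1.42 to 1.58), which misses the size for a call, and it stood at percentile 1.62 of 11479 genes. Mt3 was close to it at −0.64 ± 0.05 (1.56-fold lower, 1.46 to 1.67, percentile 1.06), while Mt2 was at −0.24 ± 0.04. Mtf1 was at −0.16 ± 0.14, with an interval that includes 0. Slc30a1 lay on the other side at 0.52 ± 0.08 (1.44-fold higher, 1.28 to 1.61, percentile 97.0). The median over all genes was 0.03.

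Between Harr and Chx, 1 of the 5 genes was called, Mt2 at −1.07 ± 0.10 or 2.09-fold lower in Harr (1.83 to 2.40). The background was 13.7% of genes called lower and 4.63% called higher, and the all-gene median was −0.05, so a count of 1 in 5 is near what genes at large showed. Mt1 was at −1.22 ± 0.64 on its longest transcript, which rests on 5 Harr reads, and at −0.64 ± 0.09 on the spliced one. Mtf1 (0.31 ± 0.22) and Slc30a1 (−0.09 ± 0.13) had intervals that included 0, and the lower bound for Mt3 (0.18 ± 0.09) lay at 0.00 after rounding. These ratios are relative to the total of CDS reads, which itself was smaller in Harr. With the library totals as reference the all-gene median moved to −0.60, and Mt3 and Mtf1 turned to −0.37 and −0.24.

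Between Harr and WT, which shares a library with each of the comparisons above, Mt1 and Mt2 were called, 2 of 5 genes against a background of 14.3% called lower and 5.29% called higher. Mt2 was 2.47-fold lower in Harr (2.16 to 2.83, log2 −1.31 ± 0.10). Mt1 was 2.34-fold lower on its spliced transcript (2.07 to 2.64, log2 −1.23 ± 0.09, background 14.1%) and at log2 −2.59 ± 0.63 on its longest transcript. Mt3 was at −0.46 ± 0.09, Mtf1 at 0.15 ± 0.22 and Slc30a1 at 0.43 ± 0.14. With the library totals as reference Mtf1 and Slc30a1 turned to −0.37 and −0.08 here, around an all-gene median of −0.51. The summed CDS reads of Mt1, Mt2 and Mt3 were 242 (WT), 179 (Chx) and 84.2 (Harr) per 1000000 library reads, beside astrocyte markers at 213, 195 and 78.8, and the part of astrocytes in the metallothionein values was not tested. Genes with a CDS under 300 nt, as all metallothioneins have, had a median log2 ratio of −0.42 between Harr and WT and of −0.37 between Harr and Chx, over 340 genes.

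Footprints that began in the 5′ UTR took their highest share of a gene's reads in the Harr library. For spliced Mt1, 812, 717 and 1183 reads in WT, Chx and Harr were 21.4% (20.1 to 22.8), 22.9% (21.5 to 24.4) and 80.4% (78.3 to 82.4) of its 5′ UTR and CDS reads together. For Mt2, 118, 184 and 161 reads were 4.54% (3.80 to 5.41), 6.73% (5.85 to 7.73) and 41.5% (36.7 to 46.5). For Mt3, 321, 633 and 444 reads were 14.7% (13.3 to 16.2), 30.4% (28.5 to 32.4) and 59.2% (55.6 to 62.7). Harr was thus far above the other libraries for all 3 metallothioneins, WT and Chx overlapped for Mt1, and Mt2 had the smallest share in every library. For Slc30a1, 35, 87 and 72 reads were 6.73% (4.88 to 9.22), 9.33% (7.63 to 11.4) and 32.7% (26.9 to 39.2). For Mtf1, on its most-read transcript, 42, 54 and 21 reads were 16.7% (12.6 to 21.8), 19.2% (15.04 to 24.2) and 28.8% (19.7 to 40.01), so that its intervals overlapped throughout. Slc30a3 had 0, 1 and 1 reads there.

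**Figure D2:**
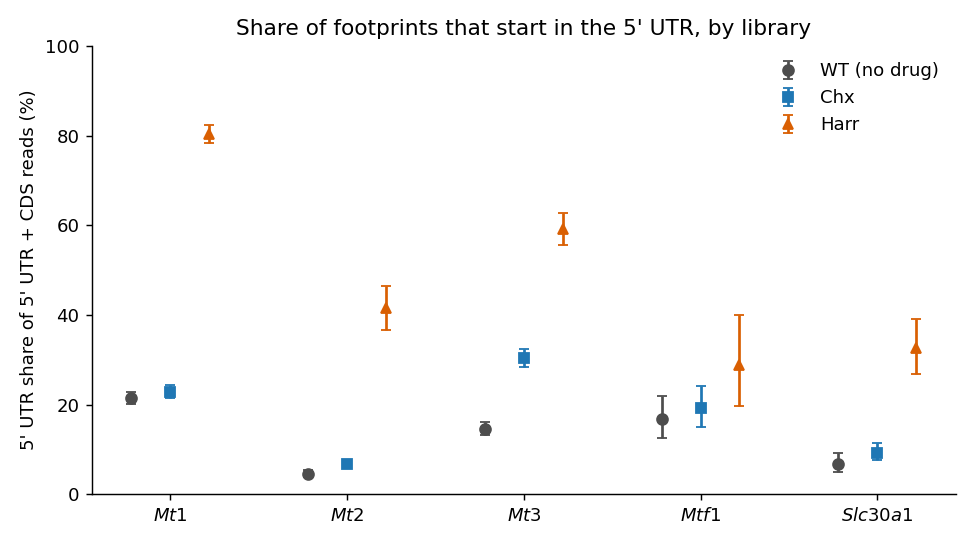
Share of 5′ UTR reads among 5′ UTR and CDS reads of each gene (vertical axis, percent) in the WT, Chx and Harr libraries, on the transcript with the most reads, with Wilson 95% intervals as bars. Harr reaches 80.4% for Mt1 and stands clear of WT and Chx for the metallothioneins and Slc30a1, while its interval overlaps those of WT and Chx for Mtf1. Slc30a3 is not drawn.

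The change of the 5′ UTR to CDS ratio was expressed as a log2 odds ratio of the reads of both regions between libraries. Between Chx and WT, 1 of 5 genes was called, Mt3 at 1.34 ± 0.11 or 2.53-fold higher (2.18 to 2.95), against 30.4% of 10418 genes called higher. Mt1 (0.13 ± 0.08 on the spliced transcript, 0.59 ± 0.23 on the longest transcript), Mt2 (0.60 ± 0.17), Slc30a1 (0.50 ± 0.30) and Mtf1 (−0.04 ± 0.36) were not called, and the all-gene median was 0.67. Between Harr and Chx, 4 of 5 genes were called higher, against 89.4% of all genes. Their odds ratios were 13.8-fold (11.8 to 16.1) for spliced Mt1 (24.7-fold, 10.3 to 59.3, on its longest transcript), 9.81-fold (7.64 to 12.6) for Mt2, 3.32-fold (2.79 to 3.95) for Mt3 and 4.72-fold (3.30 to 6.74) for Slc30a1. Mtf1 was the exception at log2 0.94 ± 0.47, which is under the size for a call (with a pseudocount of 5 it was 1.03 ± 0.43 and was called) and at percentile 7.08 of 10712 genes, whereas the all-gene median was 2.46.

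Between Harr and WT the same 4 genes were called, against 94.3% of all genes. The log2 odds ratios were 3.91 ± 0.11 for spliced Mt1 (5.22 ± 0.63 on its longest transcript, with 5 CDS reads in Harr), 3.90 ± 0.20 for Mt2, 3.07 ± 0.14 for Mt3 and 2.74 ± 0.33 for Slc30a1, around the all-gene median of 3.23. Mtf1 was at 0.90 ± 0.47, percentile 3.33, and reached 1.01 ± 0.44 on its most-read transcript, where it was called (background 94.8%). With 17 (longest) or 21 (most-read) Harr reads in the 5′ UTR, that value is among the less precise here.

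**Figure D3:**
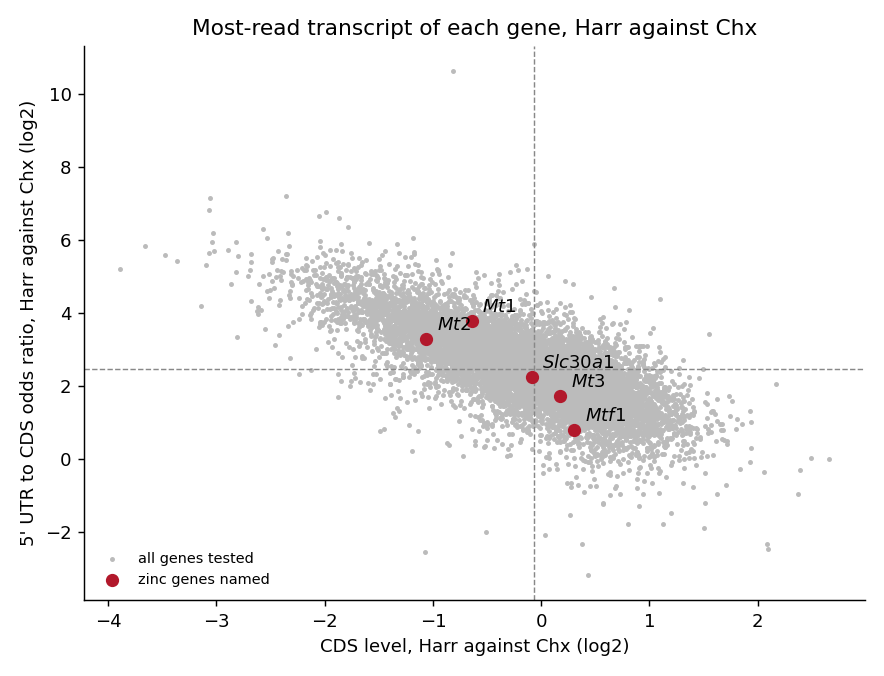
Each grey point is a gene, on its transcript with the most reads, with the CDS level in Harr over that in Chx (log2) on the horizontal axis and the log2 odds ratio of 5′ UTR to CDS reads on the vertical axis. Dashed lines are the medians of the genes plotted, red points are the named genes, and the axes share CDS reads, so part of the downward slope is built in. Mt1 and Mt2 lie at upper left, Mtf1 at lower right and Slc30a1 near the crossing of the medians.

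Where in the 5′ UTR the reads began could be read from nested annotated transcripts, which divide the 5′ UTRs of Mt1 and Mt3. In Mt1 the 70 nt nearest to the start codon held 697 of 812 reads in WT (85.8%), 492 of 717 in Chx (68.6%) and 976 of 1183 in Harr (82.5%). The density there was 329, 197 and 1429 RPKM, and it dropped with distance to 54.0, 101 and 574 RPKM at 71 to 100 nt and to 16.9, 25.4 and 31.0 RPKM at 101 to 229 nt. Reads near the start codon thus dominated in every library, and the density of the segment from 71 to 100 nt in Harr exceeded the CDS density of 159 RPKM. The single upstream ATG of Mt1 lies 165 nt before the start codon, in the sparsest part, and opens a reading frame of 69 nt that ends before the CDS. In Mt3, which has no upstream ATG, the 54 nt nearest to the start codon held 310, 600 and 422 reads, which is 94.8% to 96.6% of the 5′ UTR reads.

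Mt2 has 1 upstream ATG 147 nt before its start codon, Slc30a1 has 1 at 152 nt, and the most-read Mtf1 transcript has 3 at 346, 306 and 109 nt, all with reading frames that end within the 5′ UTR. No nested transcripts divide the 5′ UTRs of Mt2 and Slc30a1. On that Mtf1 transcript the exon part of 51 nt next to the start codon held 29, 25 and 12 reads and the middle exon of 339 nt held 13, 28 and 6, which is 31.0% (19.1 to 46.0), 51.9% (38.9 to 64.6) and 28.6% (13.8 to 49.96) of the 5′ UTR reads, with overlapping intervals. The first exon held 0, 1 and 3 reads.

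Within the coding sequence, most metallothionein footprints of the Harr library began in another exon than those of WT and Chx. The CDS of each is divided over 3 exons, of 28, 66 and 92 coding bases in Mt1 and Mt2 and of 31, 66 and 110 in Mt3. Exon 3 of Mt1 held 2087 (WT), 1781 (Chx) and 113 (Harr) reads, which is 70.1% (68.4 to 71.7), 73.9% (72.1 to 75.6) and 39.2% (33.8 to 44.98) of the CDS reads. Exon 3 of Mt2 held 1803, 2068 and 66 reads, or 72.6% (70.8 to 74.3), 81.1% (79.5 to 82.6) and 29.1% (23.6 to 35.3). Exon 3 of Mt3 held 1084, 806 and 50 reads, or 58.1% (55.9 to 60.3), 55.6% (53.0 to 58.1) and 16.3% (12.6 to 20.9). Harr was the lowest library for all 3 genes, with intervals apart from those of WT and Chx.

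The middle exon held a larger share of CDS reads in Harr. In Mt1 it held 746, 562 and 170 reads, or 25.04%, 23.3% and 59.0% of CDS reads in WT, Chx and Harr. In Mt2 the numbers were 614, 298 and 138 reads, or 24.7%, 11.7% and 60.8%. In Mt3 they were 668, 358 and 202 reads, or 35.8%, 24.7% and 66.0%. In Harr the middle exon thus held the majority of CDS reads in each metallothionein, and in WT and Chx it held a minority. Its density did not exceed that of WT: it was 374 (WT), 238 (Chx) and 264 RPKM (Harr) in Mt1, 308, 126 and 214 in Mt2, and 335, 152 and 314 in Mt3. By these values Harr lay between Chx and WT for all 3 genes, but no counting intervals were computed for them. The gap from Chx in Mt1 (264 against 238) and that from WT in Mt3 (314 against 335) were small and rest on 170 and 202 Harr reads.

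As a log2 odds ratio, the share of the second coding segment between Harr and Chx was 2.24 ± 0.19 for Mt1, 3.55 ± 0.21 for Mt2 and 2.56 ± 0.19 for Mt3. All 3 were called higher, against 8.09% of 8705 genes with at least 3 coding segments and 16.2% of the 136 of these with a CDS under 300 nt. Neither background was matched for the length of the first coding segment, which is only 28 or 31 nt in the metallothioneins. The all-gene median was −0.78, and the 3 genes stood at the percentiles 98.1, 99.7 and 98.9. Between Harr and WT the values were 2.11 ± 0.18, 2.24 ± 0.21 and 1.80 ± 0.19, all called higher, against 8.66% of 8417 genes and 20.8% of the 130 short ones. Between Chx and WT, Mt2 was called lower at −1.31 ± 0.11 (background 3.08%), whereas Mt3 at −0.77 ± 0.11 and Mt1 at −0.14 ± 0.09 were not called. Mtf1 was not called in any pair, and Slc30a1, with a CDS in 2 exons, was not among the genes of this measure.

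Of the 3 coding parts of Mt1 and Mt2, that of exon 1 is the shortest and held the fewest reads in every library. Its density was also the lowest in every library for Mt1 and in WT for Mt2. In Mt2 it exceeded that of exon 2 in Chx (184 against 126 RPKM) and that of exon 3 in Harr (84.2 against 73.5 RPKM). The exon 1 part held 146 (WT) and 68 (Chx) reads in Mt1, or 4.90% (4.18 to 5.74) and 2.82% (2.23 to 3.56) of CDS reads. In Mt2 it held 66 and 184 reads, or 2.66% (2.09 to 3.37) and 7.22% (6.27 to 8.29), and in Mt3 113 and 286, or 6.06% (5.06 to 7.23) and 19.7% (17.8 to 21.9). The Mt1 reads are those by which the genes were chosen, so they are a description and no measure of how Mt1 differs from the others, and in Mt2 and Mt3 Chx was the higher library. In Harr the part held 5 reads in Mt1, 23 in Mt2 and 54 in Mt3. The shortest reads kept were 25 nt long, so a read longer than the coding part that begins in it runs over the splice junction to exon 2, and the file headers do not say which alignment was counted. A second Mt2 transcript, whose 5′ UTR starts 12 bases into the coding part, had 1, 0 and 0 reads over the remaining 16 coding bases and the intron bases after them. At most 1 of the Mt2 exon 1 reads in WT and none in Chx and Harr therefore began in those 16 bases next to the junction. So 16 of the 28 coding bases of Mt2 exon 1 held almost no counted read starts. Whether reads over the junctions were lost or counted elsewhere was not tested. The shares of the exons, and the odds ratios of the second coding segment, describe counted reads only. In Slc30a1, exon 1 of the CDS held 251 (WT), 442 (Chx) and 49 (Harr) reads, or 51.8% (47.3 to 56.2), 52.3% (48.9 to 55.7) and 33.1% (26.0 to 41.0), so that its Harr reads lay farther into the CDS than those of WT and Chx, unlike those of the metallothioneins.

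**Figure D4:**
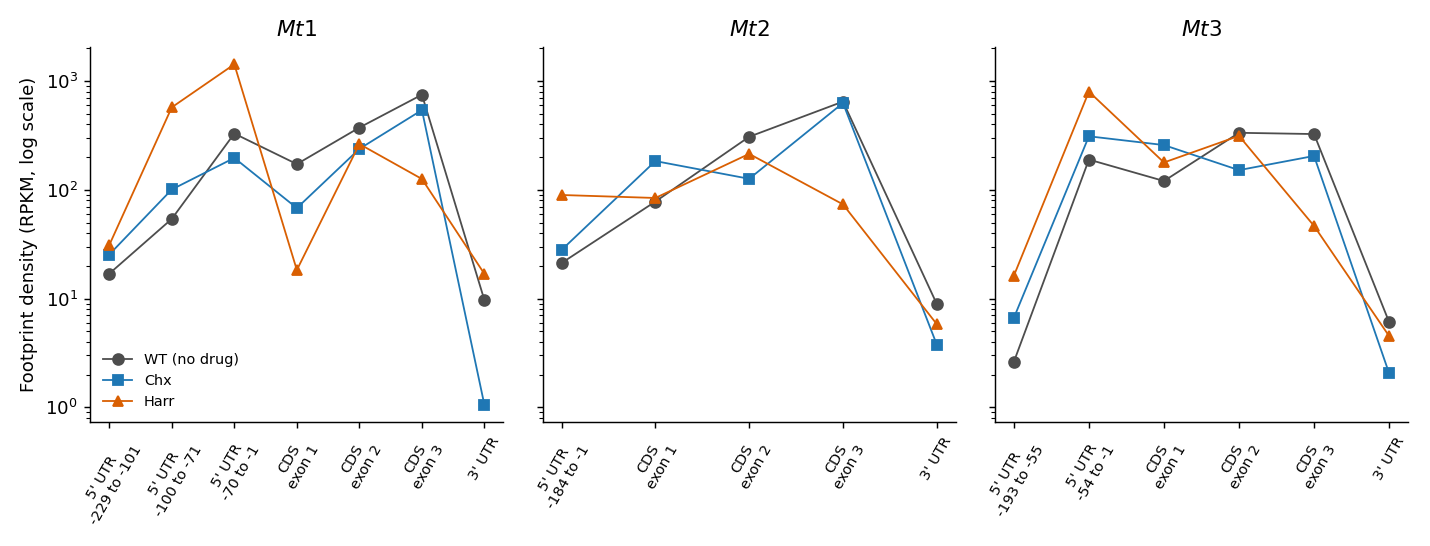
Footprint density (vertical axis, RPKM on a log scale) along the most-read transcripts of Mt1, Mt2 and Mt3, in parts ordered from the 5′ end to the 3′ end, with 5′ UTR parts named by their distance in nt from the start codon and 1 line for each library. Harr peaks next to the start codon in Mt1 and Mt3, at 1429 and 801 RPKM, and lies below WT and Chx in exon 3 of every gene.

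Few reads began in the 3′ UTRs, which serve as background. Spliced Mt1 had 39, 5 and 22 reads in WT, Chx and Harr, Mt2 had 38, 19 and 8, and Mt3 had 25, 10 and 6. At 1.04 to 16.8 RPKM, these densities were well under those of the CDS in every library, and Chx was the lowest library for each of the 3 genes. Slc30a1 had 7, 2 and 7 reads over 3492 nt and Mtf1 had 0, 2 and 3, while Slc30a3 had none.

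Few stretches of read length were shared between the metallothioneins. A read of 25 nt that matches 2 genes exactly must lie in a stretch they share, and the longest run of bases identical at the same coding positions of Mt1 and Mt2 was 20. Of the 525 words of 25 nt on spliced Mt1, 3 also occurred in another gene, Mt3, all of them in exon 2, where they are 4.55% of the starting positions. Of 487 on Mt2, 13 occurred in a transcript of Pip5k1a, 4 of them in exon 2 and 9 in the 3′ UTR. No word of the coding sequences of Mtf1, Slc30a1 or Slc30a3 occurred in another gene.

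The rest of the zinc transport family was followed in 23 further genes, those of the Slc30 and Slc39 families and Mt4, of which 16 had at least 100 CDS reads. None of the 16 was called for its CDS level in any pair of libraries, and their medians were 0.06 for Chx against WT, 0.01 for Harr against Chx and 0.15 for Harr against WT. The lowest and highest values were −0.11 (Slc30a7) and 0.37 (Slc30a9) for Chx against WT, and −0.91 (Slc39a11) and 0.76 (Slc39a10) for Harr against Chx. In Chx against WT the intervals of spliced Mt1, Mt2 and Mt3 lay below that range, and those of Mtf1 and Slc30a1 reached into it. With library totals as reference, 3 of the 16 were called lower in Harr than in Chx, against 31.2% of all genes.

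Among these, the ZIP genes with the densest footprints in WT stood above Slc30a1 and Mtf1 and below the metallothioneins. Slc39a6 (ZIP6) was at 63.2, 66.9 and 76.3 RPKM in WT, Chx and Harr, and Slc39a7 (ZIP7), which releases zinc from the endoplasmic reticulum, at 45.9, 51.4 and 37.0. Of the 25-nt words in the CDS of Slc39a7, 98.4% also occur in the overlapping annotation Gm20427, so its reads cannot be assigned to it alone. Slc39a3 (ZIP3), a plasma membrane importer, was at 26.1, 30.8 and 18.4 RPKM, and Slc39a11 at 21.9, 21.6 and 7.83. The exporter Slc30a1, at 10.6, 15.6 and 10.03, stood below all 4 of these in WT. At the other end, Mt4, the form of stratified epithelia, had no read in any library, and Slc30a2, Slc30a8, Slc39a2, Slc39a4 and Slc39a8 had 1 or 2 CDS reads in WT.

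**Figure D5:**
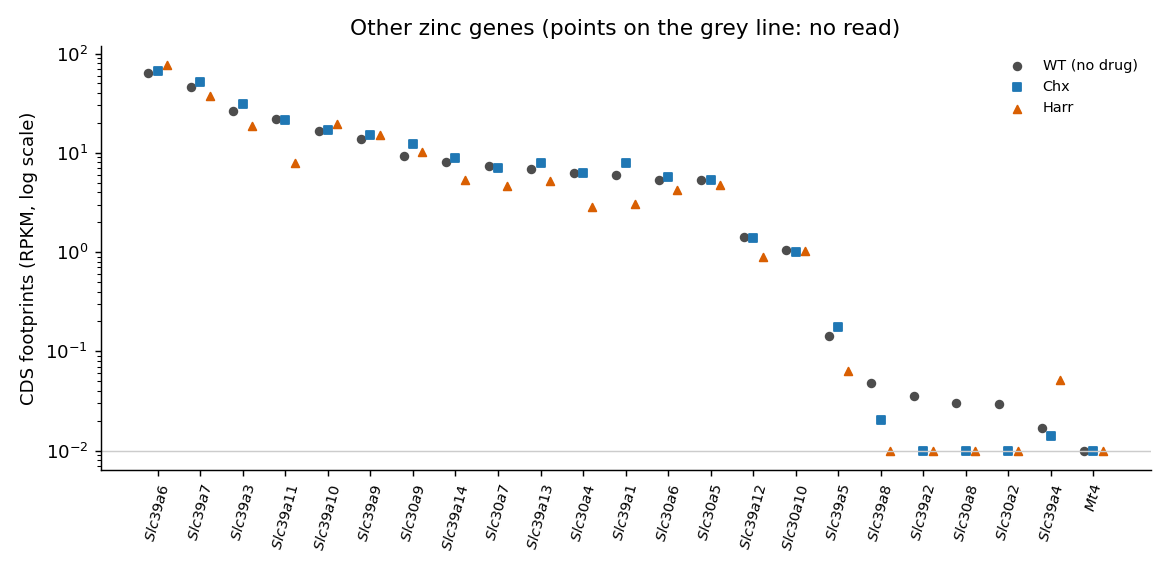
CDS footprints (vertical axis, RPKM on a log scale) of 23 further zinc genes on their longest transcripts, 1 point for each library, ordered by the WT level. Values run from 76.3 RPKM for Slc39a6 in Harr to no read for Mt4, and Slc30a4 and Slc39a11 are among the genes whose Harr point lies lowest beneath the others.

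For the 5′ UTR to CDS ratio, 3 of 14 of these genes were called higher in Chx than in WT (background 30.4%), which were Slc30a4, Slc39a13 and Slc39a14. With a pseudocount of 5 Slc39a14 was no longer called, and Slc39a13 was not among the 12 genes tested where genes whose 5′ UTR overlaps a CDS were left out. Slc30a4 (ZnT4, a vesicular transporter) had 19, 139 and 71 reads in its 5′ UTR and 242, 288 and 36 in its CDS, and its log2 odds ratio of 2.59 ± 0.37 between Chx and WT was at percentile 97.2. The other 2 were at 1.34 ± 0.45 and 1.05 ± 0.44. Between Harr and Chx all 13 genes tested were called higher (background 89.4%), from 1.22 ± 0.20 for Slc30a9 to 4.85 ± 0.44 for Slc39a11. Between Harr and WT 13 of 14 were called (background 94.3%), and Slc39a12, with 10 and 0 reads in its 5′ UTR, was not.

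Genes with profiles most like each member were found among 8803 genes, by the distance over 5 values (the log2 CDS ratios Chx to WT and Harr to Chx, and the log2 5′ UTR to CDS read ratio in each library). Nearest to spliced Mt1 were Gng3 (distance 0.38), a G protein gamma subunit with a CDS of 228 nt, Smim15 (0.43, 225 nt) and the histone gene Hist1h2ae (0.45, 393 nt), which shares 85.2% of its coding words with other histone genes. On its longest transcript Mt1 had no close neighbour, with Ptp4a2 nearest at 2.50. One of the 5 values there is the Chx to WT ratio by which the genes were chosen (−1.37, against 0.12 for Ptp4a2). That distance is therefore partly set by the choice. Mt2 was nearest to Eif4a1 (0.25), a translation initiation helicase that shares 97.5% of its coding words with pseudogenes and other genes, then to Mfsd1 (0.32) and Rasl11b (0.38). Mt3 was nearest to Spopl (0.38), Syt17 (0.45) and 1810009A15Rik (0.46), the last with all of its coding words shared with another annotation. Mtf1 was nearest to Phkb (0.33), Entpd4b (0.34), which is identical in sequence to an annotated copy, and Pomgnt1 (0.42). Slc30a1 was nearest to Irf2bp2 (0.27), Arhgef2 (0.39) and Rtn4r (0.40). By the same measure on longest transcripts, Mt2 and Mt3 were 3.60 apart, so the metallothioneins were not each other's nearest genes.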

How the data were processed

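Ribosome footprints of primary cortical neurons were measured in 3 libraries (WT, Chx, Harr), grouped by the labelled treatment. The deposited files are 9 tables by library and region. In them the authors give whole counts per exon segment, a coverage signal (count per nucleotide) and RPKM. Per the file headers, reads of 25 to 100 nt were counted with Plastid at their 5′ end with an offset of 0, on mm10 alignments without ribosomal reads and duplicates. Of aligners, the paper's methods name TopHat on the transcriptome, without new junctions, for its ORF-RATER analysis and Rsubread on mm10 for the Plastid counts of its other profiling experiment, and the headers do not say which alignment was counted. From the deposited counts, segments were summed per transcript with GENCODE M21 (99.3% of 142446 IDs matched), and RPKM was recomputed per gene. The longest transcript and, apart, the one with the most reads were used. Ratios had 0.5 added to each count and needed 100 CDS reads over the libraries (levels) or 10 reads in each region of the pair (5′ UTR to CDS). A gene was called at a log2 size of 1 with a 95% counting interval excluding 0, and share intervals are Wilson intervals. At 3 counts, the floors were 0.0993 (WT), 0.0840 (Chx) and 0.308 (Harr) reads per 1000000. With 1 library per group no test was possible. Members and lists were chosen with earlier results of these data known. Besides the 6 genes, the text names, of the other zinc genes, the 4 with the highest WT level and any called for its CDS level, and the 3 nearest genes to each member among those with 200 CDS and 30 5′ UTR reads. Slc30a7, Slc30a9, Slc39a10, Slc39a12 and the genes called for the 5′ UTR ratio or nearly without reads were named after their values were seen. Alternatives were another transcript, a pseudocount of 5, no read minimum, other normalizations and genes whose 5′ UTR overlaps no CDS. Scripts ran in Python 3.11.15 with NumPy 2.4.6, pandas 2.3.3 and SciPy 1.17.1, and were tested on simulated data.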

Additional observations from a re-analysis of the deposited data

Results flagged for a closer look

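Reads outside the annotated exons of the spliced Mt1 transcript were left out of all comparisons. In the part of intron 1 that is annotated as 3′ UTR of its longest transcript (398 nt), at least 42 reads began in WT, 55 in Chx and 24 in Harr. The counts exceed the floor of 3 reads in every library, which is why they are listed here. Per 1000000 library reads they were 1.39 (1.00 to 1.88), 1.54 (1.16 to 2.00) and 2.46 (1.58 to 3.66), with overlapping intervals. Intron 2 held 0 reads.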

How the results depend on the processing

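No paired analysis was possible because each treatment has 1 library. Of 90 counts of called genes recomputed under the alternatives, 9 moved by over 1.5 times, and 44 could show little, being 0 in both. Of 150 single values 22 left their 95% counting interval, and 45 could not move because the setting changes only which genes are tested. No called value changed sign, but 9 uncalled ones did: Mt3 and Mtf1 between Harr and Chx and Mtf1 and Slc30a1 between Harr and WT, each with library totals and with the mitochondrial reference, and the Mtf1 5′ UTR to CDS ratio between Chx and WT with the most-read transcript. For CDS levels between Chx and WT, the count of called members was 1, and it was 0 with the transcript with the most reads and 2 (Mt1 and Slc30a3) without a read minimum (0.606% of all genes were then called lower and 0.447% higher). Between Harr and Chx it was 1, and it became 2 with library totals (31.2% of all genes were then called lower) and 5 with the 13 mitochondrially encoded CDSs as reference (73.0% of all genes). Between Harr and WT it was 2, and it became 4 with the mitochondrial reference (65.8% of all genes). The count of other zinc genes called lower in Harr was 0 in both pairs. Against Chx it became 3 (library totals) and 11 (mitochondrial reference), and against WT 2 (28.9% of all genes) and 10. These references move all genes together: the all-gene median between Harr and Chx was −0.05, −0.60 with library totals and −1.43 with the mitochondrial reference, and between Harr and WT it was 0.00, −0.51 and −1.31. The depth of Harr limits Mtf1 (52 CDS reads), the longest Mt1 transcript (5) and Slc30a3 (1) most.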
